A study of Mus musculus with 4 samples.

Results

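The genes described here encode the proteins of the cytosolic ribosome, measured in single cells of mouse retina. They were chosen by symbol: Rpl or Rps followed by a number and an optional a, x, l or p ending, together with Rplp0, Rplp1, Rplp2 and Rpsa. Rps6k kinase genes, genes with a -ps pseudogene symbol and genes under 500 UMIs (unique molecular identifiers, each 1 captured RNA molecule) in total were left out. Of 55357 genes in the files, 84 symbols matched and 80 passed the minimum, 48 named for the large subunit and 32 for the small one. Together they took 5.79% of all UMIs. The matches below the minimum were Rpl10l with 1 UMI, Rpl39l with 41, Rpl3l with 407 and Rpl6l with 432, and the nearest above it was Rpl32l with 2603. The proteins encoded by Rps3a1 and Fau also belong to the ribosome, but their symbols are outside the rule and they are described apart.

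By its title, the study was about specialized endothelial cells and the blood-retina barrier in diabetic retinopathy. There were 4 libraries of retina, 2 labelled Control (Ctrl in the labels) and 2 labelled Diabetic, made from live cells enriched with CD31 microbeads on the 10x Chromium 3′ platform. CD31 is a surface protein of endothelial cells. Strain, age, sex, the way diabetes was brought about and its duration were not given in the sources used here, and nothing said that a library stands for an animal of its own. The p-values therefore measure the spread between these libraries, which may be technical.

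Control 1, Control 2, Diabetic 1 and Diabetic 2 kept 5593, 2390, 7393 and 3420 cells. Cells were put in classes by the share of their UMIs in marker genes, and 73.0% to 78.9% of the kept cells of a library fell in a class. Despite the enrichment, rods were the most numerous class, with 3294, 1209, 3407 and 1520 cells in library order. Endothelial cells numbered 508, 226, 1149 and 549, with 1271147 to 4483145 UMIs per library. All 14 endothelial markers had UMIs in all 4 endothelial sums, and their summed level was 21603 to 22969 CPM (UMIs of the gene scaled to a fixed common total of UMIs per library and class). Libraries shared 3 to 9 cell barcodes per pair.

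Ribosomal proteins and ribosomal RNA form a small subunit, which reads the messenger RNA, and a large subunit, which joins the amino acids. Their messenger RNAs are among the most abundant in most cells. Many of them begin with a run of pyrimidines, the 5′ terminal oligopyrimidine tract, through which their translation is coupled to the growth kinase mTORC1. In endothelial cells, as elsewhere, ribosome production is known to go with growth and activation of the cell.

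The starts of these genes are shown because this pyrimidine run is the sequence feature the family is known for. Promoter entries from RefSeq (GRCm38.p6) were found for 59 of the 80 genes. The letters searched for were a C followed by at least 5 further C or T on the transcribed strand, within 30 bases of either side of the annotated start. Such a run stood in 43 of the 59 windows (72.9%), against 40.1% of the windows of 27025 gene symbols. A C at the annotated start itself, followed by at least 5 C or T, was found in 11 of the 59 windows (18.6%) and in 1.72% of those of all symbols. Below are 30 bases around the run for genes that were higher in Diabetic endothelial cells, with the run in capitals. The Rps6 window is chr4:86857347-86857376 on the minus strand, and its run begins 1 base before the annotated start. The Rpl35 window is chr2:39005117-39005146, minus strand, the Rpl14 window is chr9:120571501-120571530, plus strand, and the Rpl12 window is chr2:32961706-32961735, plus strand. The runs of Rpl35 and Rpl14 begin 7 and 8 bases before the annotated start and that of Rpl12 3 bases after it. These starts are those of RefSeq, and the GENCODE gene end given below for Rps6 lies further upstream.
Rps6: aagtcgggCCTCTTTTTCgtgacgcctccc
Rpl35: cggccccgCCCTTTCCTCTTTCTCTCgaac
Rpl14: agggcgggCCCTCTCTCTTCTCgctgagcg
Rpl12: ggatccgtCTTTTCggctttcggctcggag
In endothelial cells the median log2 fold change, Diabetic over Control, was 0.33 for members with such a run and 0.32 for the 16 without one. A match describes letters only and was not tested as a site.

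The share of UMIs that the 80 genes took was higher in Diabetic than in Control endothelial cells. It was 8.41% in Control 1, 8.45% in Control 2, 10.3% in Diabetic 1 and 11.04% in Diabetic 2, so the groups did not overlap. The means were 8.43% ± 0.030 in Control and 10.7% ± 0.553 in Diabetic (SD, n = 2 each), a ratio of 1.26. The exact 95% binomial intervals, which cover counting error only, ran from 8.37% to 8.45% in Control 1 and from 11.01% to 11.08% in Diabetic 2. The median over single cells was also higher in both Diabetic libraries, with 7.63% and 7.05% in Control and 9.04% and 9.41% in Diabetic. With 2 libraries against 2, an exact permutation test of such a share cannot give a p below 0.33, and no p is given.

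Müller glia, the main glial cells of the retina, had a ratio of 1.57, from 4.33% and 5.67% in Control to 8.43% and 7.32% in Diabetic. Their median depth was 4192 and 1776 UMIs per cell in Control and 1642 and 1350 in Diabetic. In Müller glia of 2000 to 8000 UMIs the groups overlapped, with shares of 3.74% and 6.46% for Control and 8.68% and 6.12% for Diabetic. The median over those single cells was 3.16% and 4.69% for Control and 4.30% and 3.38% for Diabetic. Rods had a ratio of 1.12, with 4.36%, 4.33%, 5.07% and 4.63% in library order. The median over single rods was 4.30%, 4.19%, 4.26% and 4.19%, and by that measure the groups overlapped. Cones also had a ratio of 1.12, pericytes or smooth muscle cells 1.13, and microglia or macrophages, whose share was the highest of all classes, 1.20. Microglia of Control 1 and Control 2 stood at 14.3% and 17.1%, those of the Diabetic libraries at 18.4% and 19.1%. By the median over single microglia the groups overlapped, with 17.35% and 18.29% in Control and 18.28% and 19.32% in Diabetic. So did their shares at 2000 to 8000 UMIs, with 12.2% and 18.1% against 17.8% and 18.4%. Those microglia numbered only 15 and 4 in Control, and 70 and 28 in Diabetic. Pericytes or smooth muscle cells overlapped by the median, with 4.65% and 4.95% against 4.91% and 6.15%, but not in that depth range. Cones overlapped by neither measure, but those of 2000 to 8000 UMIs numbered only 42 and 11 in Control and 55 and 11 in Diabetic. In bipolar cells the groups overlapped, with 4.56% and 5.24% in Control and 5.08% and 5.11% in Diabetic. Bipolar cells of 2000 to 8000 UMIs did not overlap, with 4.83% and 4.76% in Control and 5.45% and 5.27% in Diabetic. They numbered 41 and 16 in Control and 40 and 21 in Diabetic.

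**Figure D1:**
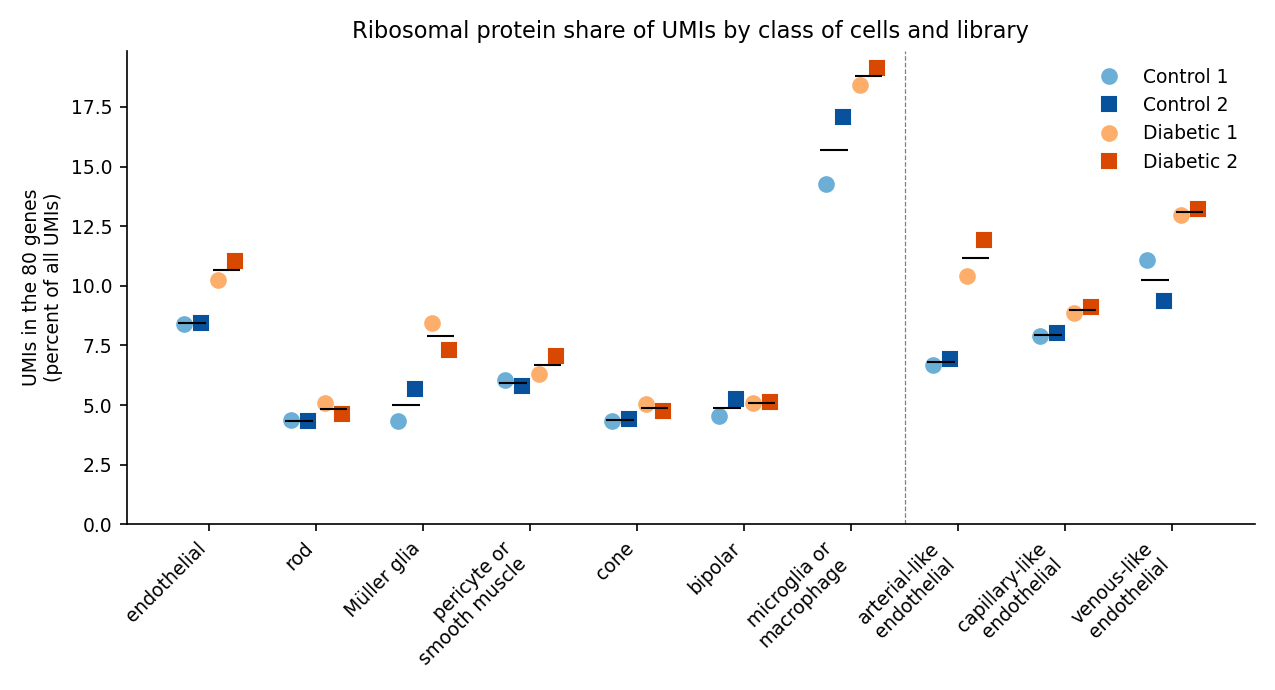
Share of UMIs in the 80 ribosomal protein genes (percent, y axis) for 7 classes of cells and, right of the dashed line, 3 endothelial subtypes. Each point is 1 library and each bar the mean of 2 libraries; both Diabetic points lie above both Control points everywhere except in bipolar cells.

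From 1000 UMIs per barcode upwards, the share was higher in deeper endothelial cells in each library. In barcodes of 1000 to 2000 UMIs the share was 6.11% and 4.97% in Control and 7.83% and 7.30% in Diabetic. Above 8000 UMIs it was 9.28% and 9.20% in Control and 11.4% and 12.4% in Diabetic. In all 5 depth ranges both Diabetic libraries lay above both Control libraries. In rods of 500 to 1000 UMIs the groups overlapped. In rods of 1000 to 2000 UMIs both Diabetic libraries lay below both Control libraries, with 4.16% and 3.94% against 4.24% and 4.46%, and in the 3 ranges above 2000 UMIs both lay above them. The median depth of an endothelial cell was 3004 and 3881 UMIs in Control and 2907 and 4092 in Diabetic.

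**Figure D2:**
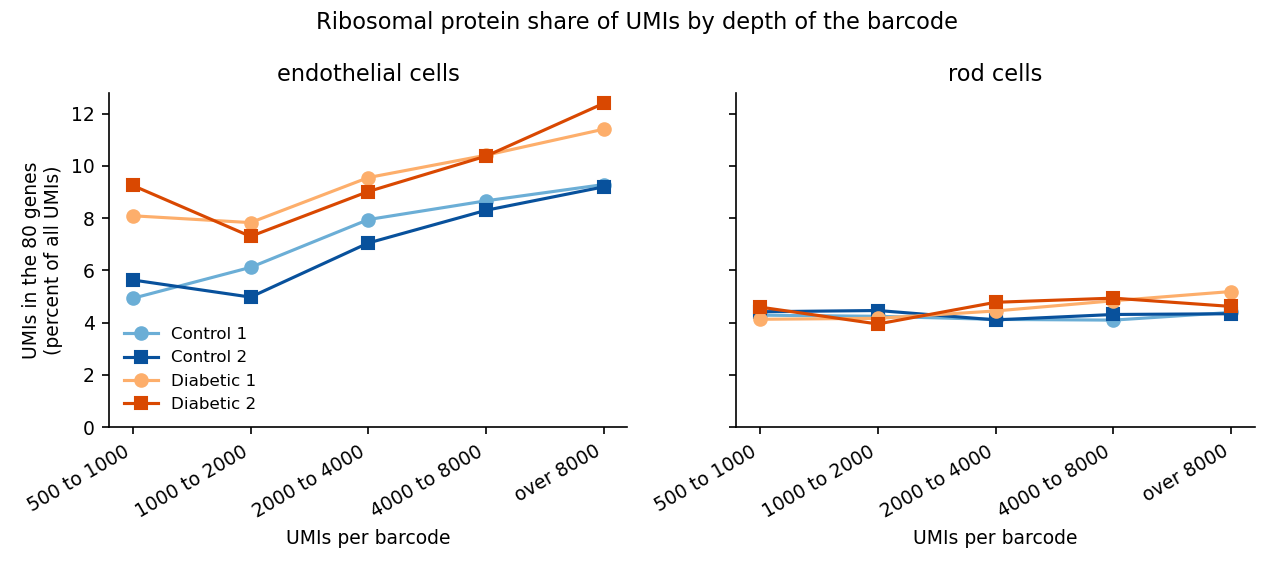
Share of UMIs in the 80 genes (percent, y axis) against the depth of the barcode (UMIs, x axis) in endothelial cells, left, and rods, right, with 1 line per library. In endothelial cells the Diabetic lines lie above the Control lines in all 5 ranges; in rods they overlap from 500 to 1000 UMIs, lie below the Control lines from 1000 to 2000 UMIs and above them from 2000 UMIs upwards.

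Gene by gene, 18 of the 79 members tested in endothelial cells were higher in Diabetic (22.8%), against 2.59% of the 11568 genes tested. None was lower, against 1.59% of all genes; none was lower at an unadjusted p under 0.05 or by DESeq2 either, and without Control 1 there were 2. These calls came from edgeR's quasi-likelihood test on summed UMIs, at a Benjamini-Hochberg adjusted p under 0.05 over all genes. The median log2 fold change of the members was 0.33, and that of all genes -0.00. Of the 79 members, 77 had a positive fold change, against 49.4% of all genes. In 64 (81.0%) both Diabetic libraries lay above both Control libraries, as they did for 23.5% of all genes. No test of the members as a list was made. Counts of members at an unadjusted p, here and below, stand without the share of all genes at that limit. The calls came from both subunits, 11 of 47 large-subunit and 7 of 32 small-subunit genes, with a median of 0.33 in each.

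Among small-subunit genes, Rps6 (chromosome 4, 86854660 to 86857412, minus strand), whose protein is phosphorylated by the S6 kinases below mTORC1, had the highest fold change. Its level was 408 and 533 CPM in the Control libraries and 619 and 846 CPM in the Diabetic ones. The groups did not overlap, and the log2 fold change was 0.65 ± 0.16 (SE, adjusted p = 0.044, edgeR). Rps28 was 959 and 876 CPM in the Control libraries and 1187 and 1513 CPM in the Diabetic ones, a log2 fold change of 0.56 ± 0.13 (adjusted p = 0.027, edgeR). Rps4x, a member on the X chromosome, was at the lower end of the called genes. It went from 1171 and 1160 CPM to 1508 and 1573 CPM, a log2 fold change of 0.41 ± 0.10 (adjusted p = 0.040, edgeR).

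Among large-subunit genes, Rpl10 (chromosome X, 74270812 to 74273135, plus strand) encodes a protein that joins the subunit at a late step of its assembly. Its level was 703 and 801 CPM in the Control libraries and 1111 and 1196 CPM in the Diabetic ones. The groups stood apart, with a log2 fold change of 0.62 ± 0.11 (adjusted p = 0.0065, edgeR). Rpl39, a small protein at the tunnel through which the new peptide leaves, was 1263 and 1145 CPM in the Control libraries and 1704 and 1910 CPM in the Diabetic ones, a log2 fold change of 0.59 ± 0.11 (adjusted p = 0.0085, edgeR). Rpl36a was 673 and 594 CPM in the Control libraries and 885 and 954 CPM in the Diabetic ones, a log2 fold change of 0.54 ± 0.11. Reads of Rpl36a may be shared with its near copy Rpl36al, whose log2 fold change was 0.31 ± 0.22 and did not pass the test. Lower in size were Rpl36 (0.41), Rpl14 (0.43) and Rpl17 (0.43). Rpl14 was 602 and 587 CPM in the Control libraries and 760 and 841 CPM in the Diabetic ones, without overlap. The pseudogene Rpl14-ps1 had 15530 UMIs over all barcodes, 18.8% of the 82714 of Rpl14. Whether they share reads was not tested. The called genes Rpl12, Rpl23, Rps16, Rpl35, Rpl32 and Rps20 lay between 0.47 and 0.51.

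Among the genes with the highest levels in endothelial cells were Rps29, Rps24, Rps14 and Rplp1, with means of 2982, 2468, 2465 and 2373 CPM over the 4 libraries. None of these 4 passed the test. Rps29 was 2849 and 2623 CPM in the Control libraries and 2967 and 3490 CPM in the Diabetic ones, a log2 fold change of 0.24 ± 0.12 with an adjusted p of 0.31 (edgeR). None of the stalk proteins, which bind the elongation factors, passed. Rplp0 was 298 and 431 CPM in the Control libraries and 447 and 627 CPM in the Diabetic ones, a log2 fold change of 0.57 ± 0.19. Rplp2 had 0.31 ± 0.10 and Rplp1 0.12 ± 0.10.

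Rpsa, known also as a laminin receptor precursor, had a log2 fold change of 0.15 ± 0.13. The pseudogene Rpsa-ps10 had 39779 UMIs over all barcodes, 49.7% of the 79962 of Rpsa. Whether they share reads was not tested. Rpl3, next to the catalytic centre, had 0.34 ± 0.14, and Rps27 had 0.29 ± 0.11. Rps27l, a relative of Rps27 that p53 is known to induce, was 187 and 195 CPM in the Control libraries and 216 and 220 CPM in the Diabetic ones, a log2 fold change of 0.20 ± 0.10. Rpsa, Rpl3, Rps27 and Rps27l did not pass the test. The only negative fold changes were those of Rps10 (-0.25 ± 0.32) and Rpl24 (-0.04 ± 0.30), both with overlapping groups.

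**Figure D3:**
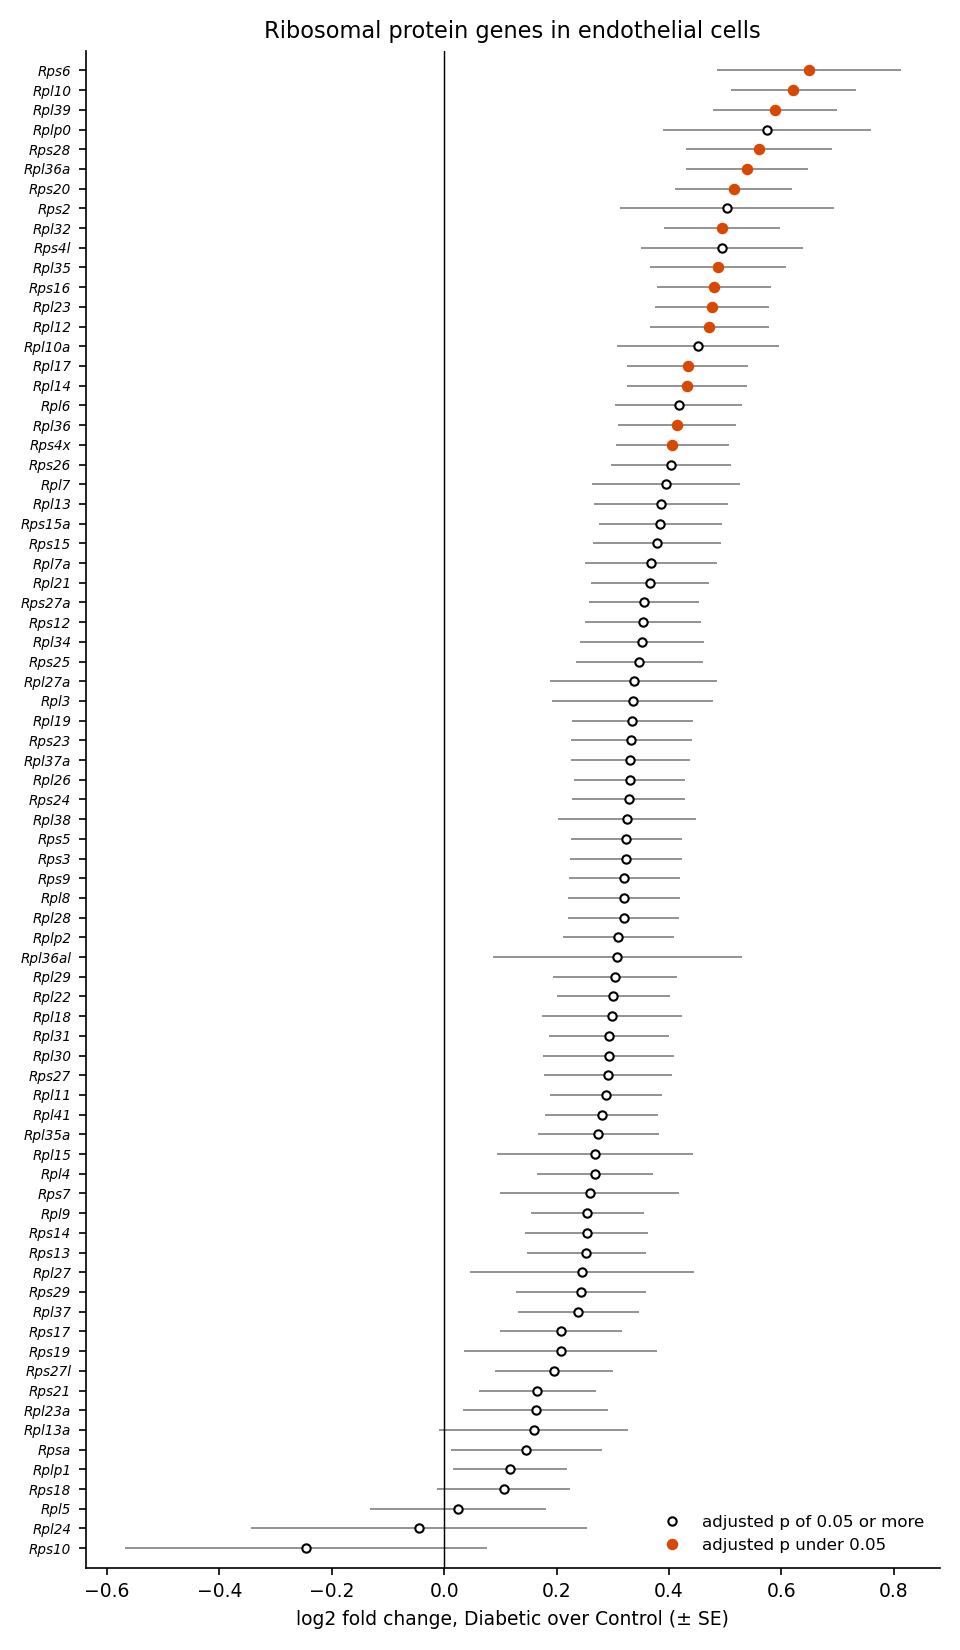
Log2 fold change, Diabetic over Control, with its SE (x axis) for 76 of the 79 members tested in endothelial cells, sorted by size (y axis). The 15 filled points passed at an adjusted p under 0.05 and lie between 0.41 and 0.65; only Rps10 and Rpl24 lie below 0.

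Several other values moved with the endothelial result. Cells with at least 1 UMI of Ackr1, Lcn2, Lrg1, Sele or Selp, genes of inflamed venules, made up 1.57% and 3.10% of endothelial cells in Control and 21.5% and 25.1% in Diabetic. In Diabetic these cells had a ribosomal protein share of 12.2% and 13.2%, against 9.28% and 9.52% in the cells without such a UMI. In Control only 8 and 7 such cells were found, with shares of 8.38% and 11.02%. Those of Diabetic were also deeper, with medians of 4847 and 6605 UMIs against 2599 and 3640. Without them, edgeR called none of the 79 members higher, against 0.667% of genes (21 at an unadjusted p under 0.05; DESeq2 was not run there), while the share was 8.28% ± 0.183 in Control and 9.40% ± 0.167 in Diabetic (SD, n = 2 each). The median log2 fold change was then 0.16, with 73 of 79 positive, and Rpl10 had 0.28 ± 0.10 with an adjusted p of 0.22 (edgeR).

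Venous-like cells were 2.76% and 3.98% of endothelial cells in Control and 14.5% and 14.6% in Diabetic. The mitochondrial share of endothelial UMIs was 5.87% and 5.17% in Control and 2.78% and 3.48% in Diabetic, and with mitochondrial genes left out of the fit 19 members were called higher (2.69% of genes). Neutrophil markers summed to 0 and 0.787 CPM in Control endothelial cells, where 8 and 7 of the 8 markers were at 0, and to 33.9 and 37.5 CPM in Diabetic. The 4 fibroblast markers summed to 1.49 and 3.93 CPM in Control, with Lum at 0 in both libraries, and to 10.9 and 24.2 CPM in Diabetic. Rod markers, all 10 of them present, summed to 6831 and 4584 CPM in the Control libraries and 5751 and 3765 CPM in the Diabetic ones. The part of neutrophil, fibroblast and rod RNA in the result was not tested gene by gene; with rod markers and mitochondrial genes left out of the fit, 21 members were called higher (2.77% of genes). Left out in turn, the libraries gave from 2 higher members, without Control 2 (1.14% of all genes), to 29, without Diabetic 1 (2.93%). Without Diabetic 2 there were 6 (1.86%).

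Endothelial cells were next split into subtypes by markers. The subtype names stand for the marker rule only, and whether a subtype was the same kind of cell in both groups was not tested. In arterial-like cells, 53 of 79 members (67.1%) were higher in Diabetic, against 3.32% of the 6679 genes tested, and none was lower, against 1.95%. Their median log2 fold change was 0.77, and that of all genes -0.01. The share was 6.69% and 6.91% in Control and 10.4% and 11.9% in Diabetic. All 18 genes called in endothelial cells as a whole, which include these cells, were among the 53. The difference of the Diabetic effect between arterial-like and capillary-like cells was not tested.

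Rps6 again had the highest fold change in arterial-like cells, with 335 and 444 CPM in the Control libraries and 696 and 1107 CPM in the Diabetic ones, a log2 fold change of 1.24 ± 0.24. Rpl36a followed with 512 and 430 CPM in the Control libraries and 970 and 1038 CPM in the Diabetic ones, 1.18 ± 0.19, and Rps28 with 1.17 ± 0.20. In none of the 3 did the groups overlap, and each at least doubled its mean, by 2.31, 2.13 and 2.13 times. The lowest called were Rps9 (0.61 ± 0.18), Rpl8 (0.63 ± 0.17) and Rps13 (0.65 ± 0.18). Control held 39 and 21 arterial-like cells and Diabetic 122 and 78, with median depths of 2416 and 6899 UMIs in Control and 4811 and 6331 in Diabetic.

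An inflamed venular UMI was found in 0% and 0% of venous-like cells in Control and in 62.3% and 78.8% in Diabetic. Cells with such a UMI were 2.56% and 4.76% of arterial-like cells in Control and 48.4% and 41.0% in Diabetic. Without them 4 members were called higher, against 0.678% of genes, namely Rpl21, Rpl36a, Rpl23 and Rpl9, with log2 fold changes of 0.76 to 0.91, and the median was 0.50. The share was then 6.31% ± 0.569 in Control and 8.86% ± 0.050 in Diabetic (SD, n = 2 each). Without Diabetic 2, 27 members were called higher (2.8% of genes).

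In capillary-like cells no member was called, against 0.807% of the 9547 genes tested (edgeR). At an unadjusted p under 0.05 there were 19, and DESeq2 also called none. The median log2 fold change was 0.15, and 73 of 79 were positive, against 50.5% of all genes. Rps6 was 391 and 472 CPM in the Control libraries and 496 and 635 CPM in the Diabetic ones, without overlap, a log2 fold change of 0.35 ± 0.14. The share was 7.89% and 8.02% in the Control libraries and 8.87% and 9.12% in the Diabetic ones, and inflamed venular UMIs were found in 2.21% and 1.65% of capillary-like cells for Control and 6.57% and 8.20% for Diabetic. Without those cells the shares were 7.84% ± 0.045 and 8.90% ± 0.077 (SD, n = 2 each). Venous-like cells had shares of 11.1% and 9.37% in Control and 12.9% and 13.2% in Diabetic, from 14 and 9 Control cells, and were not tested.

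Outside the endothelium, few members passed. In Müller glia, 3 of 80 were higher in Diabetic, against 1.08% of the 9262 genes called in either direction. They were Rpl35, Rpl14 and Rpl34. Rpl35 was 380 and 468 CPM in the Control libraries and 819 and 702 CPM in the Diabetic ones, a log2 fold change of 0.87 ± 0.19 (adjusted p = 0.034, edgeR), and Rpl14 and Rpl34 had 0.85 ± 0.19 each. Rpl35 and Rpl14 were thus called in Müller glia, in endothelial cells and in arterial-like cells. The median over all members was 0.69, and 77 of 80 were positive, against 50.2% of all genes. An unadjusted p under 0.05 was found for 73, without the share of all genes at that limit. DESeq2 called 49 higher (0.81% of all genes), and edgeR called 71 higher without Control 2 (2.97% of all genes) and none higher without Control 1 or without Diabetic 1. In the barcodes of 2000 to 8000 UMIs no member and no other gene was called, and the members' median was 0.51.

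In rods, 1 member passed, Rpl32l, against 11.1% of the 16665 genes called in either direction. Rpl32l was lower in Diabetic, with 21.6 and 22.6 CPM in the Control libraries and 12.5 and 18.0 CPM in the Diabetic ones, a log2 fold change of -0.64 ± 0.16 (adjusted p = 0.044, edgeR). DESeq2 called it too, and 3 members higher. The members' median in rods was 0.07. No member passed in pericytes or smooth muscle cells (background 0.141% of genes), cones (2.65%), bipolar cells (0.0871%) or microglia (7.35%), nor in barcodes with markers of endothelial cells and pericytes (2.3%). At an unadjusted p under 0.05 those 5 groups of cells had 2, 8, 1, 14 and 9 members, and DESeq2 called none in any of them. Their median log2 fold changes were 0.10, 0.09, 0.01, 0.21 and 0.08. Barcodes with endothelial and pericyte markers numbered 460 and 189 in Control and 896 and 447 in Diabetic. Their ribosomal protein share was 8.66% and 8.68% in Control and 9.32% and 9.46% in Diabetic, a ratio of 1.08. Microglia numbered 38 and 23 cells in Control, and their median depths were 1739 and 1389 UMIs in Control and 4976 and 6585 in Diabetic. The count of called members in microglia changed with the Control library left out, a fit in which Control is down to a single library.

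**Figure D4:**
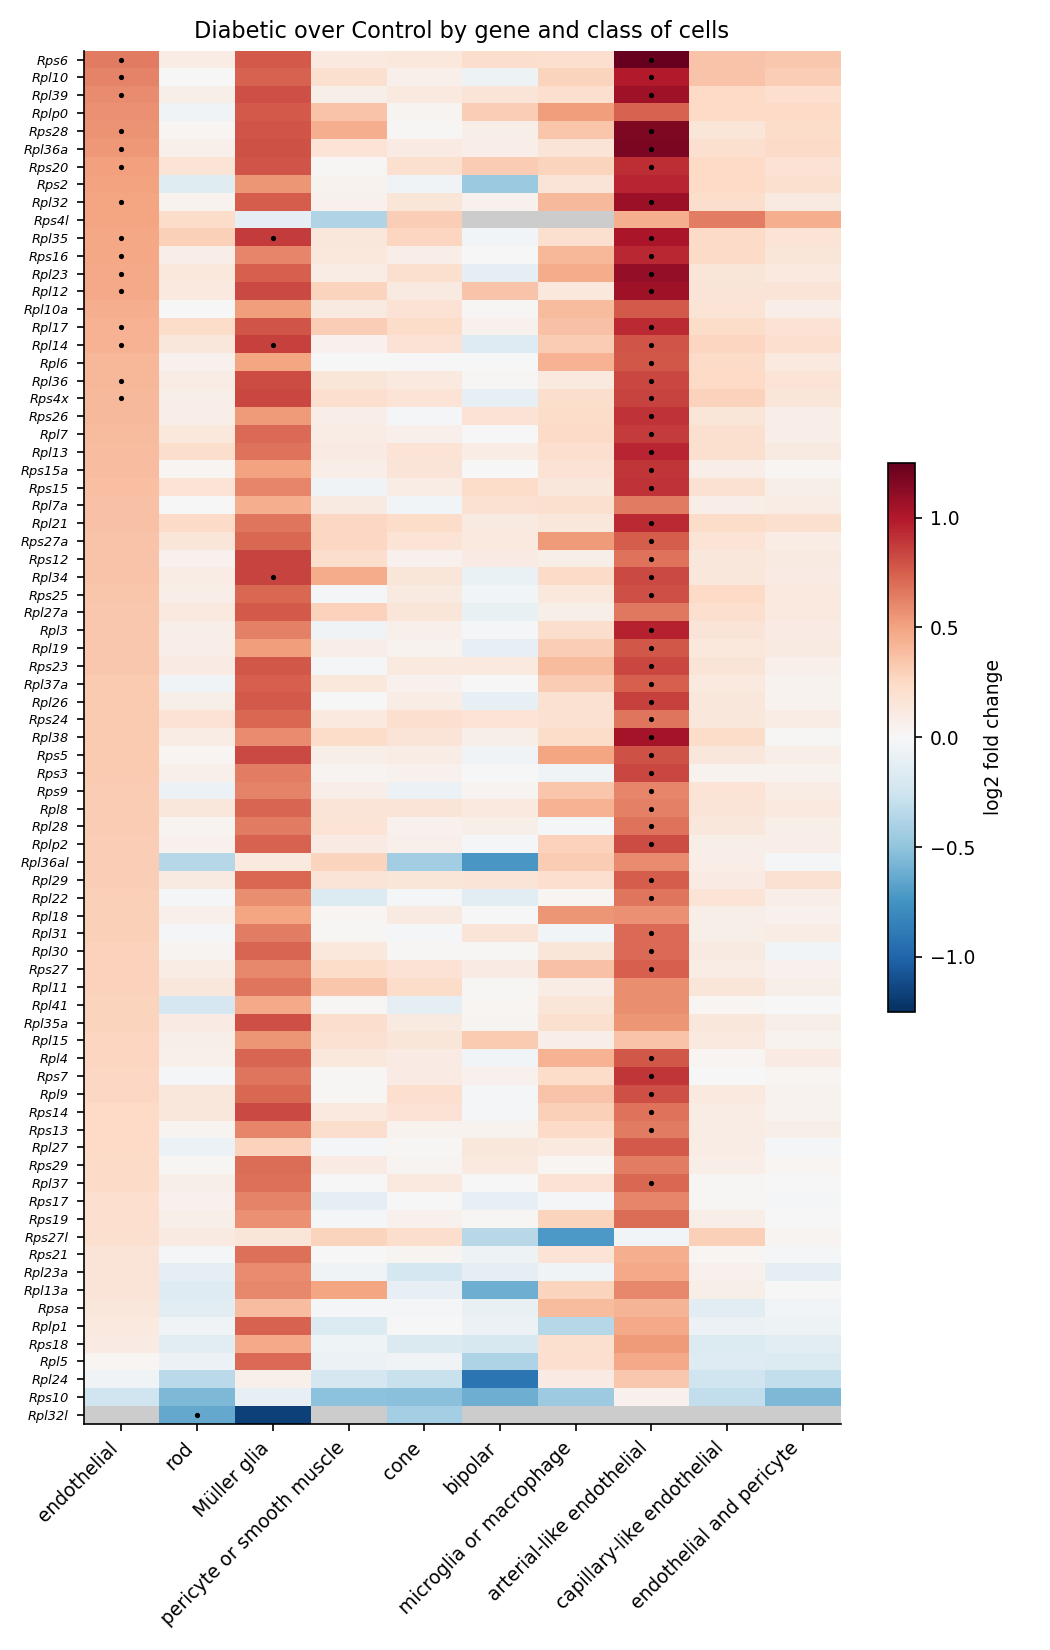
Log2 fold change, Diabetic over Control (colour), for 77 of the 80 members (y axis, sorted by the endothelial value) in 10 tested groups of cells (x axis). Dots mark an adjusted p under 0.05 and grey marks genes not tested; the dots lie in endothelial cells, arterial-like cells, Müller glia and, for Rpl32l, rods.

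The difference between classes was tested itself, in models with a term for each library. Between endothelial cells and rods no member's Diabetic effect passed as different (background 0.696% of 16381 genes, edgeR). All 80 differences were positive, against 56.4% of all genes, with a median of 0.32 against 0.07 for all genes. An unadjusted p under 0.05 was found for 16, and DESeq2 also called none. Between endothelial cells and Müller glia none was called either (background 1.2%, 13 at an unadjusted p under 0.05, none by DESeq2). There 75 of the 80 differences were negative, while 50.4% of all genes had a positive one. Against pericytes or smooth muscle cells 1 of 79 passed (background 0.557% of 9876 genes, edgeR), and that call was lost under each of 8 alternatives, among them DESeq2. The median of the 79 differences was 0.25, and 75 were positive, against 50.8% of all genes.

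Levels of the genes were higher in endothelial cells than in rods, Müller glia and pericytes or smooth muscle cells, the classes tested against them. These libraries count 3′ ends, so a UMI stands for a molecule whatever the gene's length. Against rods, 78 of 80 members were higher in endothelial cells (97.5%), against 35.3% of all genes, with a median log2 difference of 1.21 against -0.18. Against Müller glia 76 of 80 were higher (95%, background 31.9%), and against pericytes or smooth muscle cells 74 of 79 (93.7%, background 19.2%). The highest log2 differences against rods were those of Rpl10 (2.00 ± 0.14), Rpl38 (1.85 ± 0.13) and Rpl18 (1.77). Against Müller glia Rps19 had 1.23 ± 0.13. Against pericytes or smooth muscle cells Rpl38 had 1.22 ± 0.10 and Rps14 0.97. Rpl38 was 1570 to 2282 CPM in endothelial cells, 493 to 616 CPM in rods and 664 to 1036 CPM in pericytes or smooth muscle cells, without overlap.

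A few members did not follow. Rpl10a was 317, 428, 468 and 542 CPM in endothelial cells and 422, 539, 513 and 512 CPM in rods, in library order, and did not differ beyond its spread (-0.04 ± 0.13, adjusted p = 0.76, edgeR). Rpl21 was nearly equal in endothelial cells and in pericytes or smooth muscle cells, with a log2 difference of 0.04 ± 0.10. The order of the 80 genes by level was much alike in all 7 classes, with Spearman's rho from 0.836 to 0.996 across the 80 genes. These rho values describe genes that share libraries and are not independent, and the highest was between rods and cones. Rps29 was first in endothelial cells, Müller glia, pericytes or smooth muscle cells and microglia, Rplp1 in rods and cones, and Rps24 in bipolar cells. Rpl38 had rank 12 in endothelial cells, 35 in rods and 42 in microglia.

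Rpl32l (chromosome 10, 20208490 to 20208888, plus strand) and Rps4l (chromosome 6, 148354656 to 148355598, plus strand) are annotated as pseudogenes in GENCODE M21, and the other 78 members as protein coding. Rpl32l lies within the gene Map7 on the same strand, and was the only member lower in endothelial cells than in rods (-3.05 ± 0.33, background 42% of all genes lower). It was also the only one lower than in Müller glia (-2.48 ± 0.53, background 32%). Endothelial cells had 4, 0, 12 and 4 UMIs of it in library order, and rods 811, 433, 404 and 426. Map7, which encodes a microtubule-binding protein, had a mean of 46.6 CPM in endothelial cells, 299.8 CPM in rods and 471 CPM in bipolar cells, and Rpl32l 1.49, 18.7 and 29.1 CPM. Whether reads of Map7 were counted to Rpl32l was not tested. Rps4l was present in all 7 classes at 30.2 to 60.4 CPM on average, and in endothelial cells it was 51.3 and 48.8 CPM in the Control libraries and 67.1 and 74.6 CPM in the Diabetic ones (log2 fold change 0.49 ± 0.14, adjusted p = 0.081, edgeR).

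Libraries of the same group differed for some members in a way that returned in the other group. Endothelial Rps10 was 266 and 722 CPM for Control and 332 and 488 CPM for Diabetic, so that the library numbered 2 was higher in each group. In rods it was 122 and 311 CPM in the Control libraries and 138 and 174 CPM in the Diabetic ones. Rpl24 was 196 and 483 CPM in the Control libraries and 262 and 384 CPM in the Diabetic libraries of endothelial cells. Of 79 members with UMIs in all libraries, 16 were higher in library 2 in each group in both endothelial cells and rods, and 11 were lower in all 4. The same was not counted for all genes, and the endothelial and rod sums come from the same libraries. Across members, the log2 ratio of library 2 to library 1 in Control and that in Diabetic endothelial cells had a Spearman's rho of 0.61, a description across genes of the same 4 libraries. Over 11568 genes, deviations of same-numbered endothelial libraries had a Pearson correlation of 0.160, which is another measure. The UMIs of small-subunit genes per UMI of large-subunit genes were, in library order, 0.845, 0.812, 0.831 and 0.813 for endothelial cells and 0.860, 0.833, 0.860 and 0.843 for rods. What sets the libraries with equal numbers apart was not given in the sources used here, and the numbers were not shown to pair the libraries.

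**Figure D5:**
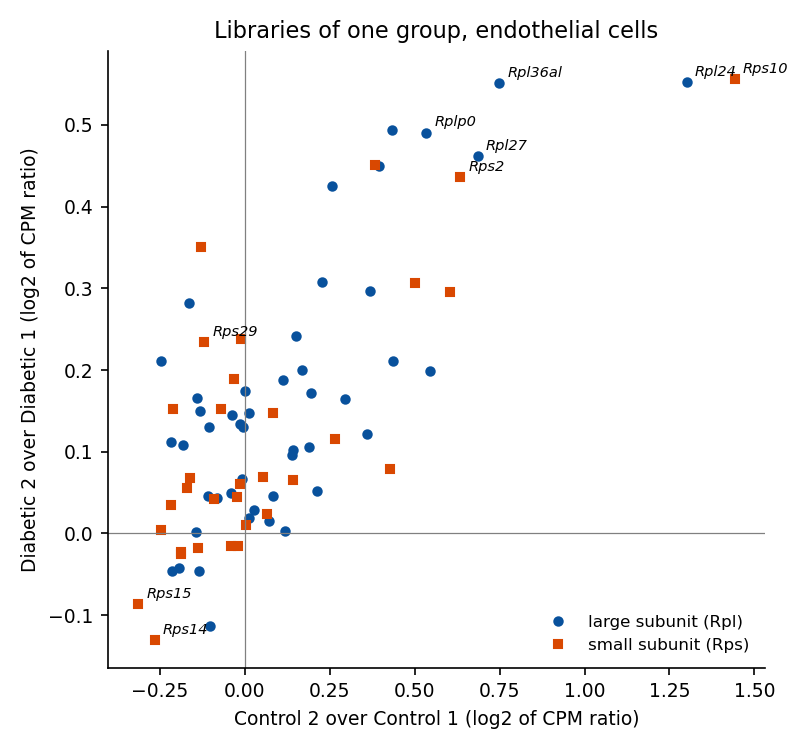
Log2 ratio of CPM in library 2 to library 1 for Control (x axis) and for Diabetic (y axis) in endothelial cells, with 1 point per member (79 members). Rps10, Rpl24 and Rpl36al lie far to the upper right, higher in library 2 of both groups.

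Other parts of the ribosome and its pathway were read from lists. Of 6 further cytosolic ribosome genes, 2 were higher in Diabetic endothelial cells. Fau, which encodes a ubiquitin-like protein fused to a small-subunit protein, was 1993 and 1812 CPM in the Control libraries and 2566 and 2533 CPM in the Diabetic ones, a log2 fold change of 0.42 ± 0.10. Rack1, a scaffold on the small subunit, had 0.39 ± 0.10. The median of the 6 was 0.32. Rps3a1, a small-subunit gene whose symbol falls outside the rule, had 0.24 ± 0.10 and did not pass.

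Of 77 mitochondrial ribosome genes tested, 2 were higher, Mrps34 (0.69 ± 0.17) and Mrpl52 (0.48 ± 0.12), none was lower and the median was 0.09. None of 16 elongation and other pyrimidine-tract genes passed in endothelial cells, though 14 were positive with a median of 0.21. In arterial-like cells 3 of these 16 were higher, against 3.32% of the genes tested there. They were Eef1a1, the factor that brings aminoacyl-tRNA to the ribosome (0.94 ± 0.19), Eif3f, an initiation factor subunit (0.74 ± 0.21), and Tpt1 (0.72 ± 0.18). Of the other lists in arterial-like cells, 2 of 6 further cytosolic ribosome, 2 of 59 mitochondrial ribosome and 1 of 4 integrated stress response genes were higher. None was higher among 16 initiation, 15 ribosome biogenesis, 12 mTORC1, 7 p53 and ribosome stress and 5 growth genes.

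No gene of the initiation list (16 tested, median -0.03) or of the mTORC1 list (17 tested, median 0.00) passed in endothelial cells. Of 28 ribosome biogenesis genes 1 was lower, Ubtf, a transcription factor of RNA polymerase I, with 125 and 121 CPM in the Control libraries and 90.6 and 91.7 CPM in the Diabetic ones (-0.43 ± 0.11). Of 9 p53 and ribosome stress genes 1 was lower, Cdkn1a, a cell cycle inhibitor (-0.48 ± 0.10). Of 11 genes of the integrated stress response 1 was higher, Ppp1r15a, which brings a phosphatase to the initiation factor eIF2 (1.13 ± 0.15). Of 8 growth genes 2 were higher, Ccnd1, a cyclin (0.75 ± 0.14), and Myc, a transcription factor of ribosome genes. Myc was at 0 and 0.787 CPM in the Control libraries and 5.35 and 10.0 CPM in the Diabetic ones, which is too low in Control for a fold change to be given. These lists stand beside a background of 2.59% of genes higher and 1.59% lower in endothelial cells.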

How the data were processed

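Single-cell libraries were compared, 2 Control and 2 Diabetic. The values are raw UMI counts per gene and barcode, as deposited; the authors used Cell Ranger 7.0.0, STAR 2.7.10b and mm10, per the submitters' processing notes, and the role of each was not given in the sources used here. Control 1, Control 2, Diabetic 1 and Diabetic 2 held 54901304, 29792902, 58792636 and 41239892 UMIs.

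Barcodes under 500 UMIs, under 300 genes or above 20% mitochondrial UMIs were dropped. Scrublet scored doublets, and the highest-scoring barcodes of each library were removed up to an expected rate of 0.8% per 1000 cells, 1.97% to 6.31% of a library's barcodes. Cells were classed by marker genes; the limits of that gate, the subtype rule and the doublet rule were set after the data were seen. Raw UMIs were summed per library and class and tested with edgeR 4.0.16 (R 4.3.3; TMM scaling, filter on low counts, quasi-likelihood test), with p-values adjusted over all genes. DESeq2 1.42.0 was an alternative. The test was checked on simulated sums. Positions are from GENCODE M21 (GRCm38). Intervals cover counting error only. Alternatives were other scalings, no filter, a replicate block, other gates and depth ranges, and each library left out in turn.

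The members and lists were chosen with earlier results of these data known. Members named with values were the 6 highest and 6 lowest fold changes among the called members of endothelial cells, a set of members with known special roles or variant-like symbols, the 5 with the highest endothelial level, the 3 highest and 3 lowest called in each other comparison, and those called in 3 groups of cells; from each list, called genes were named. Rps10, Rpl24, Rpl10a, Rpl21, Rpl9, Rpl23 and Map7 were named after their values were seen. Some members are not reported here singly and are left out of the plots of single genes; the counts include them.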

Additional observations from a re-analysis of the deposited data

Results flagged for a closer look

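Some members had both Diabetic libraries above both Control libraries in endothelial cells and below them in another class. In bipolar cells these were Rps27l, with a log2 fold change of -0.34 ± 0.40 (SE), Rpl22 with -0.13 ± 0.22 and Rpl19 with -0.10 ± 0.19. Rps27l had only 22, 16, 14 and 8 UMIs there, in library order. In microglia or macrophages they were Rps27l with -0.72 ± 0.27 and Rplp1 with -0.36 ± 0.17. None of these passed the test (edgeR). Both Diabetic libraries lay below both Control libraries in 4 of 78 members tested in bipolar cells and in 2 of 78 in microglia. The same share over all genes was not counted. The difference from endothelial cells was not tested for bipolar cells or microglia. For 2 members of this kind in other classes it was tested and did not pass (edgeR). Rpl22 had -0.17 in pericytes or smooth muscle cells, with a difference of 0.47 ± 0.17 (adjusted p = 0.39), and Rpl41 had -0.21 in rods, with a difference of 0.56 ± 0.22 (adjusted p = 0.39). Genes of the family with a -ps pseudogene symbol, which no comparison above uses, summed to 854 and 705 CPM in Control endothelial cells and to 1121 and 1104 CPM in Diabetic ones, a ratio of 1.43.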

How the results depend on the processing

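Counts are members called at an adjusted p under 0.05, and causes of the changes were not tested. Most stand without the share over all genes in the same setting. They describe the settings and do not set the members against other genes. In endothelial cells the 18 higher members became 60 with no filter, 11 in cells of 2000 to 8000 UMIs, 10 with classes by clusters and 0 without cells with an inflamed venular UMI. Settings chosen after seeing the data gave 0 with a stricter gate, 5 with barcodes that also carry pericyte markers and 0 when scaled to the summed members, which centres them by construction. The stricter gate left 121, 53, 260 and 116 cells in library order, and what the smaller sums did to its count was not tested. Leaving out each library gave 2 to 29 higher and 0 to 2 lower. The replicate numbers were not shown to pair the libraries: deviations of same-numbered libraries correlated at 0.160 over 11568 genes. With a replicate block, higher members numbered 67 in endothelial cells, 5 in rods, 5 in Müller glia, 2 in microglia, 8 in capillary-like cells and 6 in barcodes with endothelial and pericyte markers, and lower members numbered 5 in rods, 2 in cones and 1 in those barcodes. In rods, library totals gave 4 higher and 0 lower, no filter 5 and 4, and DESeq2 3 higher; cells of 2000 to 8000 UMIs gave 0 lower, and leaving out a library 0 to 2 higher and 0 to 8 lower. In Müller glia, no filter gave 0 higher, DESeq2 49, cells of 2000 to 8000 UMIs 0, and leaving out a library 0 to 71 higher and 0 to 1 lower. In microglia, library totals gave 2 higher and no filter 12, and leaving out a library 0 to 33 higher and 0 to 2 lower. In cones no filter gave 2 lower, and leaving out a library 0 to 1 higher and 0 to 5 lower; in bipolar cells it gave 0 to 2 lower. In arterial-like cells the 53 became 27 to 60 with a library left out and 4 without cells with an inflamed venular UMI. In capillary-like cells no filter gave 2 higher, and leaving out a library 0 to 5 higher and 0 to 3 lower. In barcodes with endothelial and pericyte markers, library totals gave 1 higher, no filter 4 higher and 1 lower, and leaving out a library 0 to 6 higher and 0 to 5 lower. For the Diabetic effect against rods, no filter gave 2 and leaving out a library 0 to 1; against pericytes or smooth muscle cells the 1 became 0 with DESeq2 size factors, library totals, no filter, DESeq2 or any library left out. The 1 member lower than in Müller glia became 0 without Control 1. The difference in share, Diabetic minus Control in percentage points, went from 0.507 to -0.019 in rods, 2.88 to 1.81 in Müller glia, 0.511 to 0.33 in cones and 3.10 to 0.976 in microglia by the median per cell. In cells of 2000 to 8000 UMIs it was 1.47 in pericytes or smooth muscle cells, 0.859 in cones and 0.567 in bipolar cells. Over bipolar cells of all depths, leaving out a library gave -0.141 to 0.543. Without cells with an inflamed venular UMI, the endothelial log2 fold change of Rplp1 was -0.033 and that of Rpsa -0.130; leaving out a library gave -0.070 to 0.380 for Rpsa and -0.0768 (without Control 1) to 0.695 for Rpl36al, which had -0.041 with the stricter gate. Of 707 alternative values for single genes, 542 kept their direction and side of the threshold. With no filter the median of all genes was 0.26 in arterial-like and 0.07 in endothelial cells. The planned strict gate left too few cells to be fitted.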
